A study of Mus musculus with 9 samples.

Results

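The proteins of the cytoplasmic ribosome are encoded by single-copy genes scattered over the genome, and their RNAs were measured here in whole cortex dissected from E13.5 mice. The genes were those that GENCODE M21 annotates as protein coding and whose symbol is Rpl or Rps followed by a number, or is Rplp0, Rplp1, Rplp2 or Rpsa. The rule found 83 of the 35498 genes in the deposited tables, 51 of the large and 32 of the small subunit, on 19 chromosomes. Of these, 80 passed the filter on low counts, and Rpl3l, Rpl10l and Rpl39l did not. Fau and Rack1, which also encode ribosomal proteins, fall outside the symbol rule and were counted separately.

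There were 3 libraries each of 3 genotypes, all on C57Bl/6. The double knockout (DKO) was Smarca1 -/- with 1 Cre allele (Cre +/-), and the series names it as lacking Smarca5 and Smarca1. The Smarca1 knockout (Smarca1 KO) was Smarca1 -/- without Cre (Cre -/-), and wild type (WT) was Smarca1 +/+ without Cre (Cre -/-). Neither the Cre driver nor the Smarca5 alleles of each group could be read from the labels. Smarca1 and Smarca5 are the ATPases of the ISWI complexes, which slide and space nucleosomes.

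A library held 27466225 to 46007718 estimated counts in genes. Smarca5 RNA averaged 80.2 ± 3.71 CPM in DKO, against 234 ± 18.6 CPM in Smarca1 KO and 267 ± 4.41 CPM in WT (SD, n = 3 each; CPM are TMM-scaled counts relative to the library total). Summed over the whole gene, Smarca1 RNA averaged 38.3 ± 0.432 CPM in DKO, 40.5 ± 4.49 CPM in Smarca1 KO and 37.1 ± 0.713 CPM in WT, so the sum was not lower in Smarca1 -/- tissue (log2 fold change of Smarca1 KO over WT 0.12, adjusted p = 0.378, edgeR) and does not check that genotype. No label tells whether replicates came from different embryos, and the p-values therefore cover the variation among these libraries alone, some of which may be technical. In whole tissue, fewer cells of a type and less RNA per cell cannot be told apart.

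Ribosomal proteins are made in matched amounts and assemble on ribosomal RNA in the nucleolus. Their mRNAs typically start with a run of pyrimidines, the 5' terminal oligopyrimidine (TOP) tract, through which mTORC1 and the RNA-binding protein Larp1 set their translation together. Their short, abundant mRNAs have also been copied back into the mouse genome many times as intronless processed pseudogenes, some of them nearly identical to the parent. Reads from such a pair cannot always be placed, and Salmon divides them by a statistical model.

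RefSeq promoters on GRCm38.p6 were available for 63 of the 83 genes. A run of at least 8 C or T, read on the transcribed strand between 20 bases before and 20 bases after the annotated start, was present in 30 of the 63 genes (47.6%), against 4965 of 27025 genes of all kinds (18.4%). The longest run had a median of 7 bases in ribosomal protein genes and 5 in all genes. The following 30-base stretches of the transcribed strand show such runs in capitals, in a small-subunit and in large-subunit genes whose values are described below.
Rps18, chr17:33955646-33955675, minus strand: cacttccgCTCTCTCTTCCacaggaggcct
Rpl35a, chr16:33056471-33056500, plus strand: ggcttgCCTTCCTCTTTCCgccatcttggc
Rpl34, chr3:130730328-130730357, minus strand: ccgCCCCTTCCTTTTCCTCTTCCggggacg
Rpl38, chr11:114668570-114668599, plus strand: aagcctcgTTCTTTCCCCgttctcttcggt
Rpl5, chr5:107900508-107900537, plus strand: CTCTTTCTCacgtcgcttgcgtgctggtgg
The match describes the letters in this window only, wherever the run lies in it. The Rpl5 run starts at the first base searched and ends before the annotated start, so an mRNA that begins at that start does not hold it.

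The second set of sequences is that of the copies. A copy was defined as another gene of the tables that shared at least 50% of its 31-base words with the ribosomal protein gene, or held at least 50% of that gene's words. There were 298 copies of 69 ribosomal protein genes. Of these, 288 were annotated as processed pseudogenes and 10 as protein coding, and 46 passed the filter on low counts. Aligned over 545 bases, Rps18-201, the transcript of Rps18 with the most reads over all libraries, differed from Gm10260 by 5 substitutions, and over 540 bases from Gm11361 by 4. Positions are counted from 1 at the 5' end of the parent's transcript, and the parent's base is given first. The substitution A394C separates Rps18 from all 3 of its copies. It lies in coding exon 4, at position 33952267 of chromosome 17 (GRCm38, GENCODE M21), and stands in capitals in the middle of these 29 bases.
Rps18: gtgaggacctggagAggctgaagaaaatt
Gm10260, Gm11361 and Rps18-ps3: gtgaggacctggagCggctgaagaaaatt
Rpl3-201 differed from Rpl3-ps1 by only 2 substitutions in 1210 aligned bases, C137A and T866C, both in the coding sequence of Rpl3. The first is at position 80082529 of chromosome 15.
Rpl3: ggcttcctgcctcgCaagcgcagcagccg
Rpl3-ps1: ggcttcctgcctcgAaagcgcagcagccg
Rpl35a-201 differed from Rpl35a-ps2 by the single substitution G246A in 333 aligned bases, and Rpl30-201 from Gm12191 by G273A in 348. The base of Rpl35a lies at position 33057534 of chromosome 16 and that of Rpl30 at position 34442706 of chromosome 15.
Rpl35a: gcttatgtgtataaGgcaaaaaacaatac
Rpl35a-ps2: gcttatgtgtataaAgcaaaaaacaatac
Rpl30: gtgctgggctacaaGcagactctgaagat
Gm12191: gtgctgggctacaaAcagactctgaagat
Of the other shifting pairs described below, Rpl29 and Gm13841 differed by 3 substitutions in 483 bases, Rpl34 and Rpl34-ps1 by 2 in 354, Rps7 and Gm6472 by 3 in 582, and Rps2 and Rps2-ps10 by 5 in 931.

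Ribosomal protein RNAs were among the most abundant of the tissue. The 83 genes themselves held 2.46 ± 0.151% of the counts in DKO, 2.48 ± 0.158% in Smarca1 KO and 2.39 ± 0.0593% in WT (SD, n = 3 each). With their copies they held 3.10 ± 0.168% in DKO, 3.08 ± 0.205% in Smarca1 KO and 3.04 ± 0.0830% in WT. The copies held 20.7 ± 1.51% of the joint counts in DKO, 19.6 ± 0.475% in Smarca1 KO and 21.2 ± 0.214% in WT. Scaled by length as TPM, Salmon's measure of transcript abundance, where short mRNAs weigh more, gene and copies together made up 12.4 ± 0.476% of all transcripts in DKO, 12.4 ± 0.670% in Smarca1 KO and 12.2 ± 0.240% in WT. The family's shares of counts and of TPM differed between groups by less than the SD within DKO or Smarca1 KO. The share held by copies was lower in Smarca1 KO than in WT by more than the SD of either group.

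Summed with copies, 72 of the 83 genes exceeded 1000 TPM on average over the 9 libraries, 7 lay between 100 and 1000 TPM, 1 (Rpl7l1) lay under 100 TPM, and 3 were under 1 TPM. The median of the 80 genes that passed the filter was 1447 TPM, with quartiles at 1207 and 1789 TPM. Rpl13a, a protein of the large subunit, was at 3146 ± 197 TPM. Rpl41, which encodes the smallest and most basic ribosomal protein, was at 2857 ± 169 TPM, and Rpl31 at 2738 ± 130 TPM (SD over 9 libraries). Rpl41 and Rpl31 did not differ beyond their spread. The highest of the 80 genes was 294 times the lowest without copies and 33.6 times with them, both as ratios of mean TPM.

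**Figure D1:**
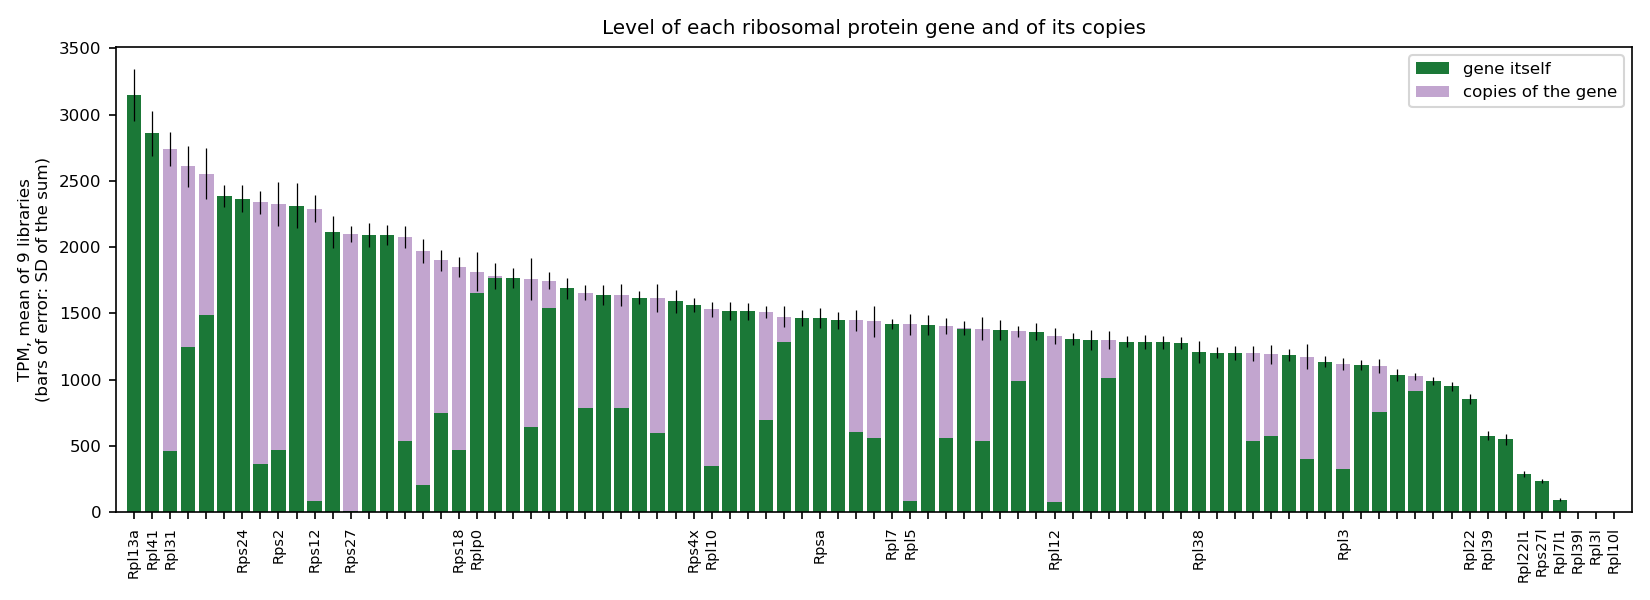
Mean TPM over the 9 libraries of each of the 83 ribosomal protein genes (green) with the TPM of its copies stacked on top (mauve), ordered by the sum, with some of the genes that the text describes named on the axis; error bars are the SD of the sum over the 9 libraries. The sums form a slope from 3146 TPM at Rpl13a to 93.7 TPM at Rpl7l1, whereas the green part alone falls to near 0 for genes such as Rps27.

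In 9 genes the gene itself held under 50% of the family's counts in every library, namely Rpl5, Rpl10, Rpl12, Rpl27a, Rpl31, Rps2, Rps12, Rps23 and Rps27. Rps27, a zinc-binding protein of the small subunit, was at 10.7 TPM by itself and 2096 ± 60.4 TPM with copies. Its counts lay almost wholly with Rps27rt, a protein-coding retrogene that held 185 CPM in DKO, 186 CPM in Smarca1 KO and 179 CPM in WT (means of 3). Rpl12 was at 79.5 TPM by itself and 1329 TPM with copies, and Rps12 at 81.9 and 2289 TPM. Levels of these genes taken alone are levels of the reads that the model left with them.

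For 8 genes the division between parent and copy differed widely between libraries. The own share, that is the gene's counts as a percentage of those of gene and copies together, ranged over more than 10 percentage points in Rps18, Rps2, Rpl3, Rpl29, Rpl30, Rpl34, Rpl35a and Rps7. The limit of 10 points was chosen after the values were seen. The other 61 genes with copies ranged over at most 9.05 points. In all 8 genes the 3 WT libraries lay within 3.18 points of each other, but division also differed within WT in genes under the limit. Rpl10 had an own share of 23.7%, 16.9% and 25.9% in WT replicates 1 to 3, and that of Rpl11 ranged over 7.86 points within WT, with replicate 2 at 95.6% and replicate 3 at 87.7%. The Rpl11 copy Gm10288 was at 14.1, 12.5 and 44.3 CPM in those libraries.

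Rps18, a protein of the head of the small subunit (GRCm38 chromosome 17, 33951999 to 33956001, minus strand), had an own share of 10.3%, 10.7% and 10.03% in DKO replicates 1 to 3. It was 59.4%, 58.8% and 59.2% in Smarca1 KO and 11.3%, 9.66% and 9.62% in WT. Every Smarca1 KO library was thus far above every DKO and WT library. Rps18 was at 43.7, 41.3 and 39.5 CPM in the DKO libraries, 229, 245 and 209 CPM in those of Smarca1 KO, and 43.7, 38.1 and 38.5 CPM in those of WT. The fold change on the log2 scale was -2.46 ± 0.0759 for DKO over Smarca1 KO (SE; adjusted p = 5.67e-07) and 2.50 ± 0.0763 for Smarca1 KO over WT (adjusted p = 4.98e-07), by edgeR's quasi-likelihood test with Benjamini-Hochberg adjustment over all genes. For DKO over WT it was 0.047. Of the 80 genes taken alone, it was the only 1 called by edgeR in any comparison, where 2.66% of all genes were called lower in DKO than in Smarca1 KO and 0.139% higher in Smarca1 KO than in WT.

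Both protein-coding copies moved the other way. Gm10260, on chromosome 13, was at 240, 220 and 220 CPM in DKO, 102, 106 and 97.0 CPM in Smarca1 KO, with 218, 224 and 230 CPM in WT. Gm11361, elsewhere on chromosome 13, was at 125, 108 and 117 CPM in DKO, 40.4, 52.0 and 38.9 CPM in Smarca1 KO, with 108, 118 and 116 CPM in WT. Gm10260 rose by 1.16 ± 0.0504 in DKO over Smarca1 KO and fell by 1.14 ± 0.0505 in Smarca1 KO over WT (log2, SE; adjusted p = 5.1e-06 and 8.97e-06, edgeR). Gm11361 rose by 1.41 ± 0.103 and fell by 1.38 ± 0.103 in the same comparisons (adjusted p = 0.000165 and 0.000384). Rps18-ps3, at 7.80 to 17.4 CPM over the 9 libraries, was not called (adjusted p = 0.199 and 0.278). Gm10260 and Gm11361 were the only copies called among the 46 tested, in any comparison.

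The sum of Rps18 and its copies was 424, 384 and 393 CPM in DKO, 384, 418 and 351 CPM in Smarca1 KO, with 385, 396 and 402 CPM in WT, so the groups overlapped. Tested as 1 feature, its log2 fold change was 0.058 ± 0.0635 for DKO over Smarca1 KO (adjusted p = 0.699), 0.022 for DKO over WT and -0.036 ± 0.0635 for Smarca1 KO over WT (adjusted p = 0.795, edgeR). In transcripts, the shift was mainly in Rps18-201, at 12.9, 14.5 and 8.08 CPM in DKO, 202, 216 and 181 CPM in Smarca1 KO, with 9.80, 0 and 0 CPM in WT. The coding transcript Rps18-206 moved the other way, at 2.32, 0.78 and 5.21 CPM in DKO, 0.55, 0.64 and 0.44 CPM in Smarca1 KO, with 4.62, 7.48 and 8.85 CPM in WT. Neither transcript passed after adjustment over all transcripts. In the order named, adjusted p was 0.306 and 0.303 for DKO over Smarca1 KO, and 0.287 and 0.225 for Smarca1 KO over WT (edgeR). Whether the reads themselves or their placement differed was not tested.

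**Figure D2:**
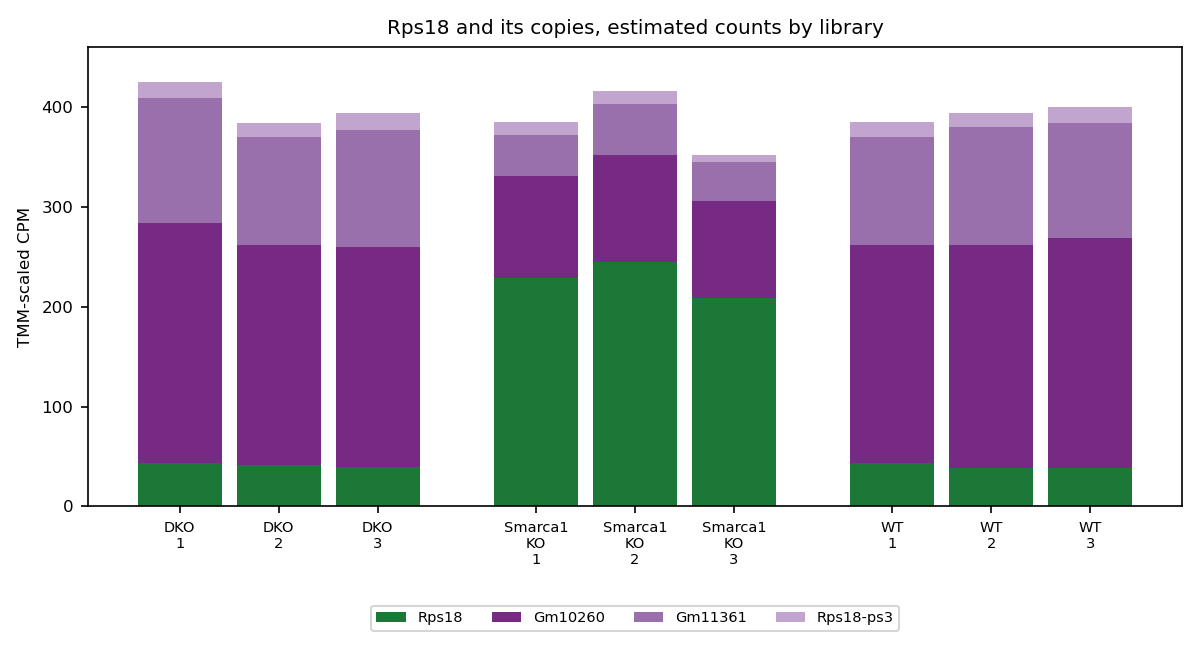
TMM-scaled CPM of Rps18 (green) and of its 3 copies Gm10260, Gm11361 and Rps18-ps3 (purples), stacked, in each library of DKO, Smarca1 KO and WT. The stack is 351 to 424 CPM high in all 9 libraries, and the green part is 209 to 245 CPM in the Smarca1 KO libraries and 38.1 to 43.7 CPM in the other 6.

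Rps2, a small-subunit protein near the mRNA entry site, had an own share of 1.43%, 1.45% and 48.4% in DKO, 48.2%, 48.8% and 49.3% in Smarca1 KO and 1.01%, 1.03% and 1.12% in WT. DKO replicate 3 sat with the Smarca1 KO libraries and the other DKO libraries with WT. Its log2 fold change alone was -1.44 for DKO over Smarca1 KO, 3.96 ± 1.22 for DKO over WT (adjusted p = 0.0623) and 5.40 ± 1.28 for Smarca1 KO over WT (adjusted p = 0.109). Without DKO replicate 3 it was -4.96 for DKO over Smarca1 KO (adjusted p = 3.79e-08), 0.44 for DKO over WT (adjusted p = 0.0345) and 5.40 for Smarca1 KO over WT (adjusted p = 4.97e-09). DKO replicate 3 is in the fit but not in the comparison of Smarca1 KO with WT. Without DKO replicate 1 or replicate 2 the log2 fold change of Rps2 was 4.50 in either case for DKO over WT (adjusted p = 0.0274 and 0.0473). With copies it was at 1046, 956 and 957 CPM in DKO, 958, 963 and 838 CPM in Smarca1 KO, with 991, 1017 and 1030 CPM in WT, and the log2 fold change was -0.038 for DKO over WT and -0.14 for Smarca1 KO over WT, with neither called (edgeR).

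Rpl3, a core protein of the large subunit near the peptidyl transferase centre, showed the opposite arrangement. Its own share was 49.7%, 10.1% and 49.0% in DKO, 9.66%, 9.49% and 9.77% in Smarca1 KO and 49.8%, 50.05% and 50.4% in WT. DKO replicate 2 was the library that sat with Smarca1 KO. The log2 fold change of Rpl3 alone was 1.90 ± 0.472 for DKO over Smarca1 KO (adjusted p = 0.0543) and -2.44 ± 0.480 for Smarca1 KO over WT (adjusted p = 0.0783). Without DKO replicate 2, the library that differed from its group, both were called, at 2.35 (adjusted p = 6.55e-07) and -2.45 (adjusted p = 2.86e-07, edgeR). That library is in the fit but not in the comparison of Smarca1 KO with WT. Leaving out any other library gave no call of Rpl3. With copies Rpl3 was at 680, 623 and 643 CPM in DKO, 670, 709 and 612 CPM in Smarca1 KO, with 685, 701 and 706 CPM in WT.

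The other 5 genes shifted in single libraries of a group, and no call came with them. Rpl29 and Rpl35a had their high own shares in the same pair of libraries, DKO replicate 3 (72.0% and 74.3%) and Smarca1 KO replicate 1 (73.6% and 74.7%). In the other 7 libraries Rpl29 was at 45.2% to 46.7% and Rpl35a at 51.6% to 53.4%. Rpl34 and Rps7 shared another pair, DKO replicate 1 (69.0% and 73.6%) and Smarca1 KO replicate 3 (70.1% and 74.5%). Rpl30 was high in DKO replicate 3 alone, at 76.2%. All 5 genes are on different chromosomes, and no WT library showed a shift in any of them.

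**Figure D3:**
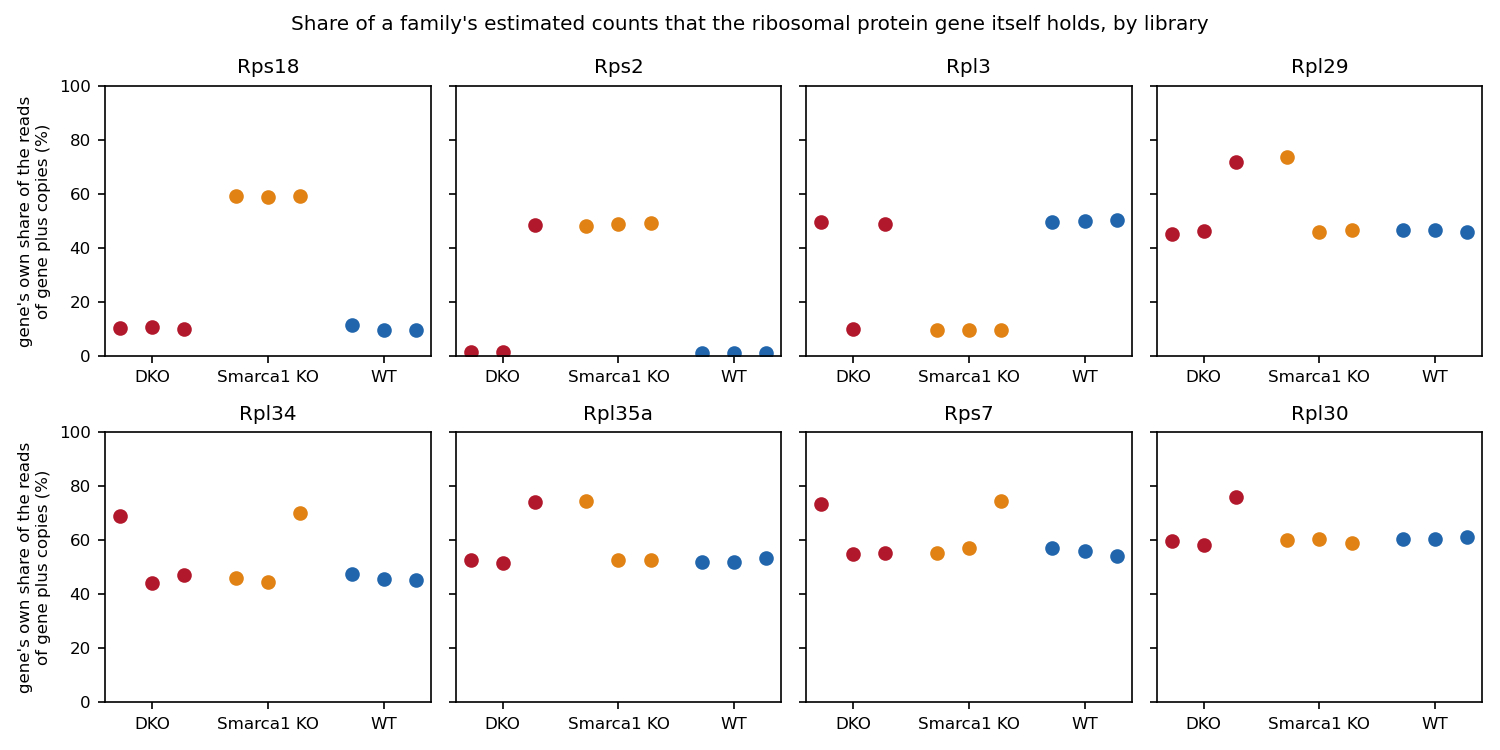
Own share, in percent, of the 8 genes whose share ranged over more than 10 points, with a point for each library, DKO replicates 1 to 3 at the left of each panel, Smarca1 KO in the middle and WT at the right. Rps18 separates all 3 Smarca1 KO libraries from the rest, whereas in the other panels 1 or more DKO libraries sit with Smarca1 KO or apart, and the 3 WT points are always close together.

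Across the genotypes, few ribosomal protein genes were called. Taken alone, 0 of 80 genes were called higher and 1 (Rps18) lower in DKO than in Smarca1 KO, where 1.73% and 2.66% of all 15773 genes were called in these directions. None was called in DKO over WT, where 5.61% of all genes were called higher and 6.35% lower. In Smarca1 KO over WT, 1 (Rps18) was called higher and 0 lower, against 0.139% and 0.197% of all genes. At an unadjusted p under 0.05 there were 3 genes for DKO over Smarca1 KO, 5 for DKO over WT and 5 for Smarca1 KO over WT, out of 80 in each case, where 2905, 4890 and 2978 of all 15773 genes lay under it. DESeq2, run on the same genes, called 2 (Rpl3 and Rps18), 3 (Rpl23a, Rpl38 and Rplp0) and 3 (Rpl3, Rpl38 and Rps18) of the 80, against 7.50%, 18.2% and 4.61% of all genes.

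With copies summed into their parents, 0 of 80 genes were called in any of the 3 comparisons by edgeR, against 4.39%, 12.3% and 0.312% of all features for DKO over Smarca1 KO, DKO over WT and Smarca1 KO over WT. At an unadjusted p under 0.05 there were 1, 4 and 2 genes, where 2876, 4902 and 2968 of all 15727 features lay under it. DESeq2 on the same sums called 0, 3 and 1 genes, against 7.46%, 18.3% and 4.64% of all features. The median log2 fold change of the 80 genes was 0.0022 for DKO over Smarca1 KO, 0.034 for DKO over WT and 0.027 for Smarca1 KO over WT, beside 0.0027, 0.0016 and 0.0054 for all features. All single fold changes lay between -0.19 and 0.19. All 80 confidence intervals lay within 0.5 log2 units of 0 in each comparison, and the outermost bounds were -0.34 and 0.31. The large and the small subunit had medians of 0.033 and 0.038 in DKO over WT and of 0.033 and 0.027 in Smarca1 KO over WT.

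**Figure D4:**
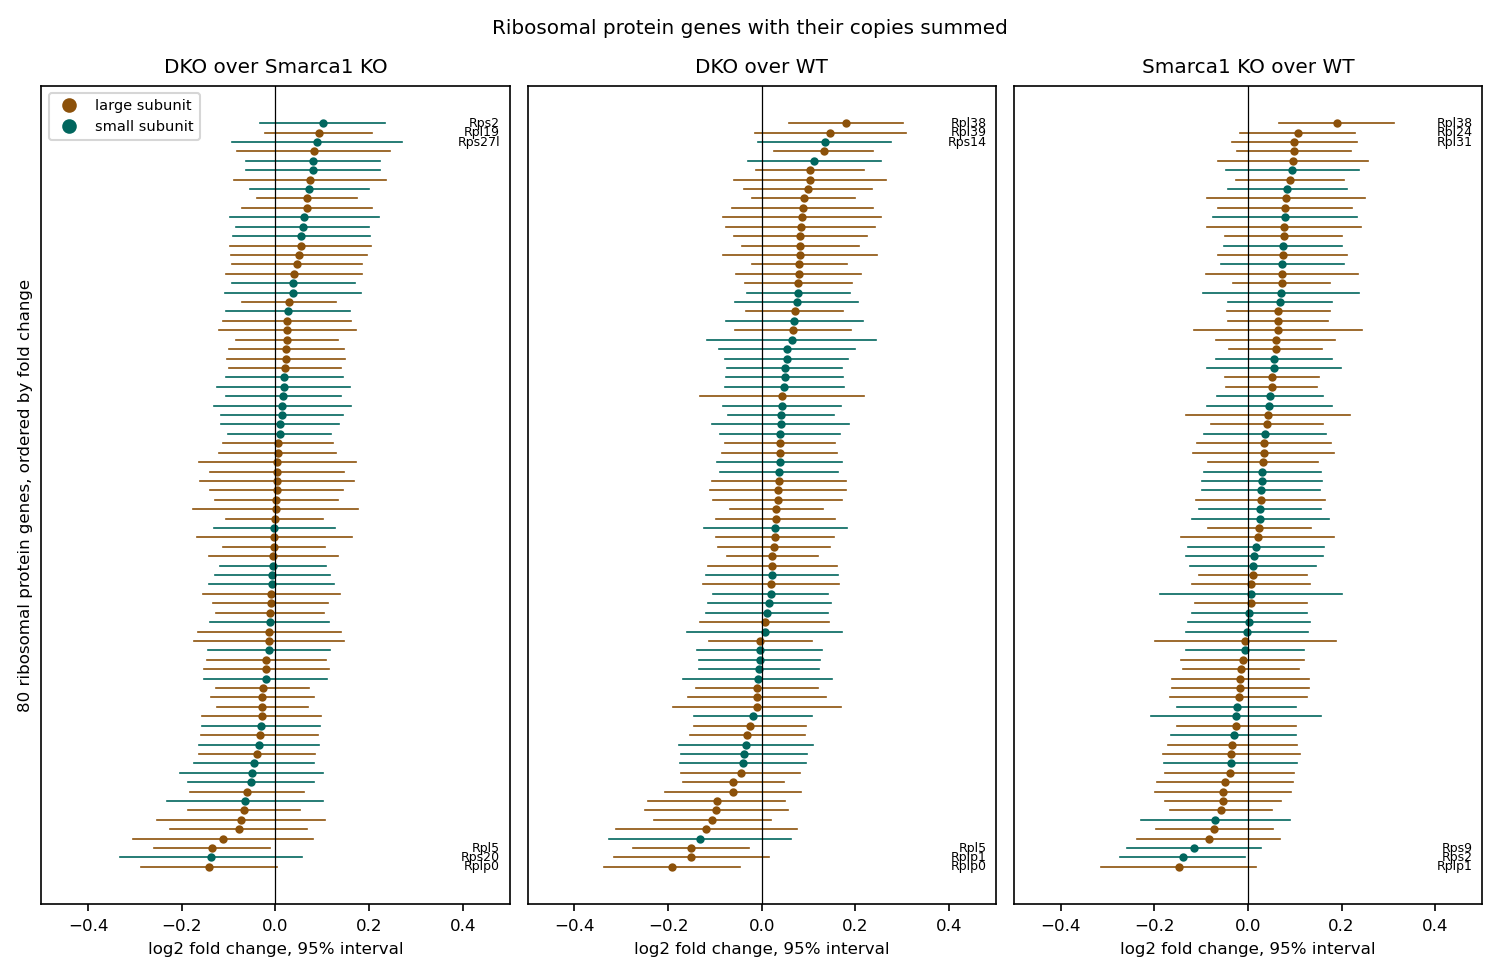
Log2 fold change with its 95% confidence interval from edgeR for the 80 ribosomal protein genes with copies summed, ordered within each comparison and coloured by subunit, with the 3 genes at either end named. All 80 points lie between -0.19 and 0.19, and large-subunit and small-subunit genes are mixed throughout the order.

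The genes nearest to a call were few, and some were called under single alternatives. Rpl38, a small protein of the large subunit that in mouse is known for its part in the translation of Hox mRNAs, was at 128, 122 and 117 CPM in DKO, 118, 132 and 119 CPM in Smarca1 KO, with 103, 109 and 111 CPM in WT, copies included. The 3 WT libraries were below all 6 others. Its log2 fold change was 0.18 ± 0.0547 for DKO over WT (adjusted p = 0.0593) and 0.19 ± 0.0548 for Smarca1 KO over WT (adjusted p = 0.148, edgeR), comparisons that share the WT libraries. DESeq2 called both (adjusted p = 0.0216 and 0.0390). Leaving out Smarca1 KO replicate 2 or replicate 3, which are in the fit but not in the comparison, also ended with a call for DKO over WT (adjusted p = 0.0328 and 0.0370).

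Rplp0, the base of the stalk that recruits the translational GTPases, was at 953, 836 and 898 CPM in DKO, 994, 1063 and 906 CPM in Smarca1 KO, with 996, 1023 and 1048 CPM in WT, copies included. The DKO libraries were below the WT libraries and overlapped those of Smarca1 KO. Its log2 fold change for DKO over WT was -0.19 ± 0.0648 (adjusted p = 0.0800, edgeR), and DESeq2 called it (adjusted p = 0.0362). It was also called without DKO replicate 1 (-0.23, adjusted p = 0.0465) and without Smarca1 KO replicate 3 (-0.19, adjusted p = 0.0317). The stalk proteins that bind to it were nearer to 0: Rplp1 had a log2 fold change of -0.15 for DKO over WT and Rplp2 one of -0.031, neither called.

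Rpl23a, which sits at the mouth of the exit tunnel, was at 452, 420 and 446 CPM in DKO, 412, 444 and 401 CPM in Smarca1 KO, with 395, 400 and 408 CPM in WT. DKO and WT did not overlap, and the fold change was 0.13 ± 0.0476 on the log2 scale (adjusted p = 0.0933, edgeR; 0.0411, DESeq2). It was called without Smarca1 KO replicate 3 (adjusted p = 0.0483).

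Rpl5 and Rpl11 form, with the 5S ribosomal RNA, the particle that binds Mdm2 when ribosome assembly is disturbed and so stabilises p53. Rpl5 with its copies was at 631, 597 and 615 CPM in DKO, 664, 729 and 630 CPM in Smarca1 KO, with 658, 705 and 682 CPM in WT. On the log2 scale its fold change was -0.14 ± 0.0555 for DKO over Smarca1 KO (adjusted p = 0.230) and -0.15 for DKO over WT (adjusted p = 0.101, edgeR). Among the alternatives run with copies summed, it was called for DKO over WT only without Smarca1 KO replicate 2 or replicate 3 (adjusted p = 0.0487 and 0.0481). Rpl11 had a log2 fold change of 0.0035 for DKO over Smarca1 KO and 0.083 for DKO over WT, neither called.

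Under the rule that names up to 6 genes in each direction, the remaining genes of DKO over Smarca1 KO were Rpl19, Rps3, Rpl12 and Rps14 above 0 and Rps20, Rpl10 and Rpl15 below 0. Those of DKO over WT were Rpl21, Rps14 and Rpl19 above and Rps20, Rpl13a, Rpl7l1 and Rpl22l1 below 0. Those of Smarca1 KO over WT were Rpl21, Rpl15 and Rpl24 above and Rpl10a, Rps9, Rpl7l1 and Rpl4 below 0. Taken alone, the log2 fold changes of these genes were between -0.25 (Rpl10, DKO over Smarca1 KO) and 0.14 (Rps14, DKO over WT), and none was called. Rps14, together with Rpl38, Rpl23a and Rpl39 above 0 and Rplp0 below 0, was called for DKO over WT, taken alone, when the fit held only those groups. Of all genes, 22.1% were called in that fit.

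Several ribosomal protein genes have a paralogue that the symbol rule also found. Rpl22, an RNA-binding protein of the large subunit, was at 850 ± 44.3 TPM in DKO, 864 ± 55.6 TPM in Smarca1 KO and 839 ± 10.99 TPM in WT. Its paralogue Rpl22l1, whose RNA Rpl22 is known to repress in mouse, was at 272 ± 23.7 TPM in DKO, 297 ± 22.1 TPM in Smarca1 KO and 300 ± 16.2 TPM in WT (SD, n = 3 each, copies included). The log2 fold change of Rpl22l1 for DKO over WT was -0.12 ± 0.0862 (adjusted p = 0.383) and that of Rpl22 0.023 (adjusted p = 0.760, edgeR). Rps27l, a p53-induced paralogue of Rps27, was at 242 ± 18.7 TPM in DKO, 229 ± 16.1 TPM in Smarca1 KO and 233 ± 7.70 TPM in WT, against 2092 TPM in DKO, 2143 TPM in Smarca1 KO and 2053 TPM in WT for Rps27 with copies. Rpl7 was at 1437 ± 31.9 TPM in DKO, 1409 ± 45.4 TPM in Smarca1 KO and 1409 ± 50.5 TPM in WT, and Rpl7l1 at 94.4 ± 7.81, 92.4 ± 13.3 and 94.1 ± 11.5 TPM in the same groups.

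The paralogues known from other tissues were at or near 0. Rpl10l, an X-to-autosome retrogene used in the male germ line, was listed at 0 in every library, against 1490 ± 23.8 TPM in DKO, 1575 ± 66.3 TPM in Smarca1 KO and 1526 ± 36.2 TPM in WT for Rpl10 with copies. Rpl39l, the testis form of Rpl39, did not exceed 0.39 TPM in any library, with Rpl39 at 605 ± 10.99 TPM in DKO, 578 ± 48.5 TPM in Smarca1 KO and 550 ± 16.9 TPM in WT. Rpl3l, the form of heart and skeletal muscle, did not exceed 0.10 TPM. Rps4x, 1 of the 4 genes on the X chromosome, was at 1546 ± 62.6 TPM in DKO, 1565 ± 63.3 TPM in Smarca1 KO and 1574 ± 48.1 TPM in WT. Rpsa, also known as the laminin receptor, was at 1478 ± 80.1 TPM in DKO, 1421 ± 110 TPM in Smarca1 KO and 1489 ± 32.7 TPM in WT, and Rpl41 at 2970 ± 180 TPM in DKO, 2847 ± 197 TPM in Smarca1 KO and 2754 ± 90.9 TPM in WT. None of these genes was called.

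At the level of transcripts, 409 transcripts of the 83 genes passed the filter, 186 of them coding, 157 with a retained intron, 49 processed and 17 substrates of nonsense-mediated decay. None was called in any comparison by edgeR, where 0.132%, 0.330% and 0.0295% of 50919 transcripts were called for DKO over Smarca1 KO, DKO over WT and Smarca1 KO over WT. At an unadjusted p under 0.05 there were 22, 30 and 31 of the 409 transcripts, or 5.38%, 7.33% and 7.58%, against 8.30%, 12.5% and 8.97% of all transcripts tested. Coding transcripts held 88.8% to 89.4% of the reads of these genes in a library, decay substrates 4.76% to 5.23% and retained introns 3.41% to 3.73%, so these shares ranged over less than 1 percentage point across the 9 libraries.

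Rps24, a gene with alternative 3' exons that is mutated in Diamond-Blackfan anaemia in human, drew most of its reads from the coding transcript Rps24-202. It was at 418, 391 and 385 CPM in DKO, 404, 429 and 376 CPM in Smarca1 KO, with 367, 374 and 372 CPM in WT, or 84.6% to 88.4% of the gene. The DKO and Smarca1 KO libraries were all above the WT libraries, with log2 fold changes of 0.10 ± 0.0528 for DKO over WT (adjusted p = 0.484) and 0.12 ± 0.0528 for Smarca1 KO over WT (adjusted p = 0.562, edgeR). The retained-intron transcript Rps24-204 was at 25.1, 24.01 and 22.5 CPM in DKO, 29.4, 29.1 and 20.99 CPM in Smarca1 KO, with 26.7, 33.0 and 29.2 CPM in WT, with none of its differences called.

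Between most replicates of a group, though not all, nearly all of the 80 genes differed in the same direction. With copies summed, all 80 were higher in Smarca1 KO replicate 2 than in Smarca1 KO replicate 3, with a median difference of 0.21 on the log2 scale, while 49.7% of all genes tested were higher there. In DKO, 79 of 80 were higher in replicate 1 than in replicate 2 (median difference 0.13), against 50.3% of all genes. In WT, 0 of 80 were higher in replicate 1 than in replicate 3 (median difference -0.072), against 52.3% of all genes. WT replicates 2 and 3 showed no such common direction, with 31 of 80 genes higher in replicate 2 (median difference -0.011), against 49.1% of all genes. The genes are not independent of each other, and no test was made of these counts.

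The mean log2 deviation of the 80 genes from their 9-library means was 0.079, -0.050 and -0.0033 in DKO replicates 1 to 3, 0.012, 0.11 and -0.11 in Smarca1 KO and -0.060, 0.0034 and 0.016 in WT. The groups overlapped fully. Large-subunit genes were at 0.074, -0.055 and -0.0015 in DKO, 0.013, 0.11 and -0.10 in Smarca1 KO and -0.063, 0.0037 and 0.018 in WT. Small-subunit genes were at 0.087, -0.044 and -0.0061 in DKO, 0.0097, 0.11 and -0.12 in Smarca1 KO and -0.055, 0.0028 and 0.013 in WT. The ratio of large-subunit to small-subunit counts was 1.42, 1.43 and 1.45 in DKO, 1.45, 1.46 and 1.47 in Smarca1 KO and 1.45, 1.45 and 1.45 in WT, copies included. All 3 DKO libraries were below all 3 of Smarca1 KO, and DKO overlapped WT.

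Other values that differed between the same libraries are given beside this, and their part in it was not tested. The mean fragment length implied by Salmon's effective lengths was 317, 307 and 309 bases in DKO, 297, 290 and 314 bases in Smarca1 KO and 316, 309 and 311 bases in WT. Smarca1 KO replicate 2, the highest in ribosomal protein RNA, had the shortest fragments, and DKO replicate 1, the next highest, had the longest. Smarca1 KO replicate 3 and WT replicate 1, the lowest in ribosomal protein RNA, had fragments of 314 and 316 bases. The 8 radial glia markers deviated by 0.029, -0.035 and -0.11 in DKO, 0.028, -0.0088 and -0.19 in Smarca1 KO and 0.065, 0.11 and 0.11 in WT, and the 8 neuron markers by -0.15, 0.055 and 0.11 in DKO, -0.11, 0.14 and 0.22 in Smarca1 KO and -0.040, -0.078 and -0.15 in WT. The 8 meningeal markers summed to 638, 265 and 236 CPM in DKO, 584, 243 and 246 CPM in Smarca1 KO and 414 to 502 CPM in WT. DKO replicate 1 and Smarca1 KO replicate 1 were thus above WT in meningeal markers, and the other DKO and Smarca1 KO libraries below it. The 8 microglia markers summed to 66.4, 52.6 and 64.8 CPM in DKO, 39.5 to 47.0 CPM in Smarca1 KO and 38.0 to 40.1 CPM in WT, and the 10 erythroid markers to 882 to 1458 CPM in DKO, 1064 to 1625 CPM in Smarca1 KO and 1397 to 1876 CPM in WT. Of these markers edgeR called 2 microglia genes higher in DKO over Smarca1 KO. In DKO over WT it called 4 microglia genes, 2 radial glia genes and 1 neuron gene higher, and 2 radial glia genes and 1 erythroid gene lower. Beside these, 1.73% of all genes were called higher in DKO over Smarca1 KO, and 5.61% higher and 6.35% lower in DKO over WT.

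**Figure D5:**
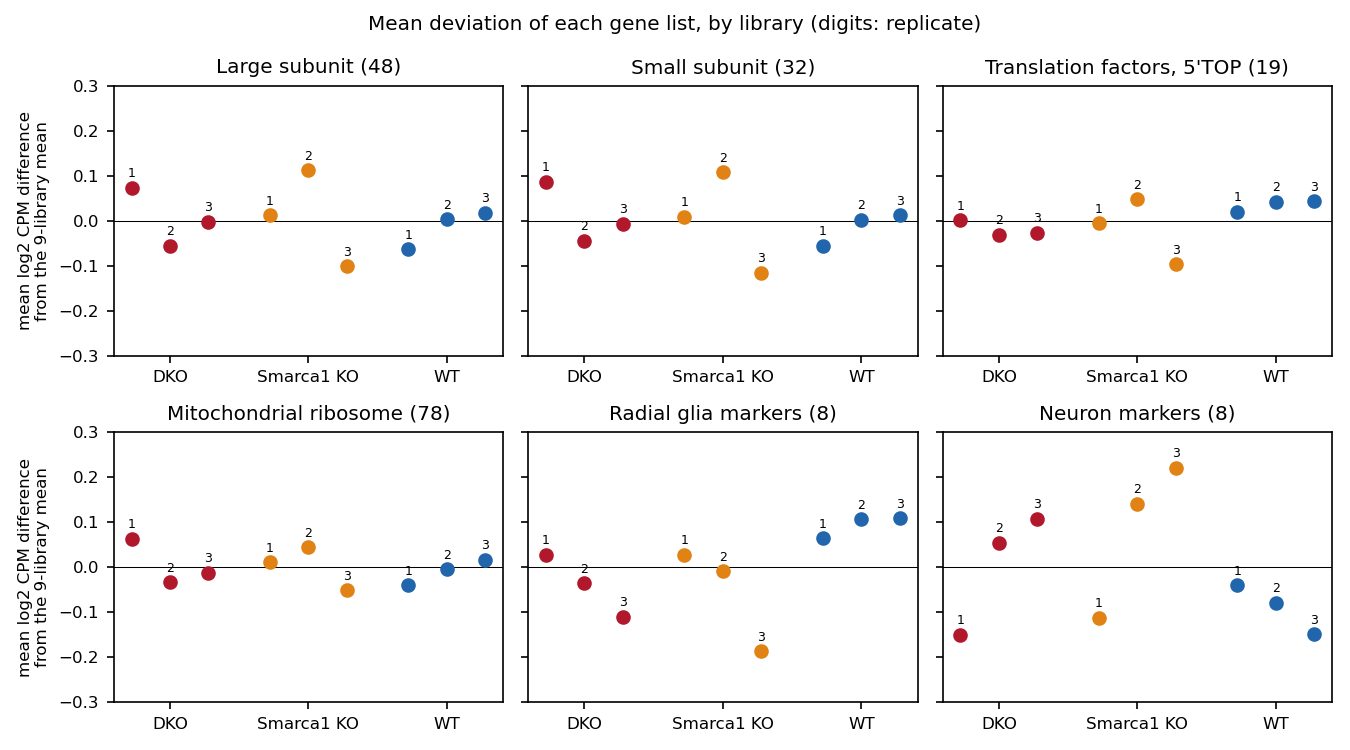
Mean log2 CPM deviation from the 9-library mean, by library, for large-subunit and small-subunit ribosomal protein genes (copies summed), translation factors with a 5' TOP tract, mitochondrial ribosomal proteins, radial glia markers and neuron markers, with the number of genes in brackets and the replicate number above each point. In the upper left and middle panels Smarca1 KO replicates 2 and 3 lie at 0.11 and at -0.10 or lower, and the 3 groups overlap.

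Genes that share the regulation or the function of the ribosomal proteins were set beside them. None of Fau, Rack1, Rpl36al and Rps27rt, ribosomal protein genes outside the symbol rule, was called in any comparison by edgeR, and none had an unadjusted p under 0.05. Rps27rt had a log2 fold change of 0.049 for DKO over WT (adjusted p = 0.543). Of 19 translation factors and related genes with a 5' TOP tract, none was called by edgeR, with 1, 4 and 2 at an unadjusted p under 0.05 for DKO over Smarca1 KO, DKO over WT and Smarca1 KO over WT. Their median log2 fold changes were 0.0038, -0.045 and -0.048 in that order. The smallest p for DKO over WT was that of the histone chaperone Nap1l1 (-0.23, adjusted p = 0.0557), and for Smarca1 KO over WT that of Pabpc1, the poly(A)-binding protein (-0.26, adjusted p = 0.0961). None of 6 dedicated ribosomal protein chaperones was called, and none had an unadjusted p under 0.05; Grwd1, which escorts Rpl3, had a log2 fold change of 0.11 for DKO over Smarca1 KO (adjusted p = 0.559, edgeR).

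Of 78 mitochondrial ribosomal protein genes, which encode a separate ribosome, 3 were called higher and 2 lower in DKO over WT, 0 and 1 in DKO over Smarca1 KO, and none in Smarca1 KO over WT, with 3 at an unadjusted p under 0.05 there. The shares of all genes called higher and lower were 5.61% and 6.35%, 1.73% and 2.66%, and 0.139% and 0.197% in the same order. Mrpl16 was at 16.9, 14.6 and 14.4 CPM in DKO, 22.8, 20.1 and 20.8 CPM in Smarca1 KO, with 23.5, 23.2 and 23.7 CPM in WT. It fell by 0.48 in DKO over Smarca1 KO (adjusted p = 0.0115) and by 0.62 in DKO over WT (adjusted p = 0.00296, edgeR). In DKO over WT, Mrps6 and Mrps16 rose by 0.30 each and Mrpl3 fell by 0.22 (adjusted p = 0.0157, 0.0309 and 0.0261, edgeR). The median log2 fold change of the 78 genes was 0.016 for DKO over Smarca1 KO and 0.00045 for DKO over WT.

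Of 23 regulators of mTORC1 and of TOP mRNAs, 3 were called higher and 1 lower in DKO, both against Smarca1 KO and against WT, comparisons that share the DKO libraries. The shares of all genes called higher and lower were 1.73% and 2.66% against Smarca1 KO, and 5.61% and 6.35% against WT. Sesn2, a stress-induced inhibitor of mTORC1, was at 16.2, 16.1 and 18.5 CPM in DKO, 11.3, 7.47 and 8.05 CPM in Smarca1 KO, with 9.30, 9.74 and 10.4 CPM in WT. It rose by 0.92 ± 0.15 over Smarca1 KO (adjusted p = 0.00961) and by 0.79 over WT (adjusted p = 0.0119, edgeR). Deptor, an inhibitory subunit of mTOR complexes, was at 3.97, 3.95 and 4.07 CPM in DKO, 2.42, 2.29 and 2.33 CPM in Smarca1 KO, with 2.25, 1.98 and 1.99 CPM in WT, and it rose by 0.77 over Smarca1 KO and 0.94 over WT on the log2 scale (adjusted p = 0.0128 and 0.00404, edgeR). Larp1b, a relative of Larp1, rose by 0.49 and 0.62 in the same comparisons (adjusted p = 0.0354 and 0.0102, edgeR). Ddit4, another inhibitor of mTORC1, fell by 0.24 and 0.22 (adjusted p = 0.0258 and 0.0237, edgeR). Larp1 and Mtor themselves were not called.

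A list of 7 genes was drawn up around the sensing of unassembled ribosomal proteins, and whether each responds to them was not tested. Of these, only Cdkn1a, the cell cycle inhibitor p21 and a p53 target, was called by edgeR. It was at 21.4, 21.6 and 21.6 CPM in DKO, 16.5, 11.4 and 14.4 CPM in Smarca1 KO, with 13.8, 13.6 and 15.1 CPM in WT. It rose by 0.61 ± 0.12 in DKO over Smarca1 KO (adjusted p = 0.0204) and by 0.60 in DKO over WT (adjusted p = 0.0140). The shares of all genes called higher there were 1.73% and 5.61%. Trp53 RNA was at 106, 107 and 107 CPM in DKO, 109, 118 and 98.7 CPM in Smarca1 KO, with 122, 124 and 121 CPM in WT (adjusted p = 0.0545 for DKO over WT). Trp53 and the rest of the list besides Cdkn1a all had log2 fold changes below 0 for DKO over WT, with Mdm2 at -0.091 (adjusted p = 0.101, edgeR). None of these lists was compared with the ribosomal protein genes by a test.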

How the data were processed

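RNA was measured in 9 stranded mRNA libraries of cortical tissue, 3 a genotype. The authors deposited 1 table per library with estimated counts and TPM per transcript and effective lengths, per the file headers. Salmon 1.4.0, build mm10 and DESeq2 are named per the submitters' processing notes. Which index and strand setting Salmon used is not given in the sources at hand, and reads of overlapping genes on either strand cannot be told apart. Of 116546 transcripts, 115977 matched GENCODE M21, and those that did not held 0.104% to 0.116% of a library's counts. Estimated counts were summed per gene and rounded; the deposited TPM was used for levels and for shares.

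Genes were tested with edgeR 4.0.16 in R 4.3.3: TMM factors of 0.991 to 1.02, filterByExpr, all 9 libraries in 1 fit of group means, quasi-likelihood F tests and Benjamini-Hochberg adjustment over 15773 genes, an adjusted p under 0.05 being a call. The biological coefficient of variation common to all genes was 10.2%. Standard errors were the fold change divided by the square root of F, and intervals are at 95%. The same was done per transcript, and with copies summed into their parent (15727 features). DESeq2 1.42.0 was an alternative. Salmon's own uncertainty of assignment is not in these tables and not in the tests. The gene fit was also run on simulated counts with the same spread for every gene and changes in DKO alone. No division of reads between gene and copy was simulated, so that run does not bear on the placement of reads.

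Always named were Rps18, the paralogue pairs, Rpl5, Rpl11, Rps24, the stalk proteins, Rpl41 and Rpsa; then the 6 smallest p in each direction per comparison, the 3 highest and lowest levels, and from each list up to 4 called genes or the smallest p. Rps2, Rpl29, Rpl30, Rpl34, Rpl35a, Rps7, Gm10260, Gm11361, Rps27rt, Rps12 and the other genes with low own shares, Trp53, Mdm2, Mtor and Larp1 were chosen after their values were seen. The members, lists and rules were chosen with earlier results of these data known. Alternatives were other scalings, filters, groups in the fit, length offsets, a replicate block and leaving out each library. Promoter sequences are from RefSeq (GRCm38.p6) and transcript sequences from GENCODE M21; substitutions come from local alignment with Biopython 1.88. Some genes that the rule for named genes would give are not reported here.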

Additional observations from a re-analysis of the deposited data

How the results depend on the processing

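The call of Rps18 held with every other scaling, filter, length offset, left-out library and with the replicate block. It ended when its copies were summed with it. The log2 fold change was then 0.058 for DKO over Smarca1 KO and -0.036 for Smarca1 KO over WT, with 0 genes called in either direction. Whether the reads themselves or their placement differed was not tested. Leaving out libraries gave -2.52 to -2.40 for DKO over Smarca1 KO, 0.0069 to 0.11 for DKO over WT and 2.44 to 2.57 for Smarca1 KO over WT for Rps18 alone. Counts of called genes were small and moved with the setting, and the cause was not tested. For DKO over Smarca1 KO, DESeq2 and no filter each called 1 gene higher (Rpl3) and 1 lower (Rps18), and leaving out a library 0 to 1 higher and 1 to 2 lower. Of all genes, 7.50%, 2.59% and 1.78% to 4.95% were called in these settings. For DKO over WT, DESeq2 called 2 higher and 1 lower, no filter 1 higher and 0 lower, a fit of those groups alone 4 higher and 1 lower, and leaving out a library 0 to 2 higher and 0 to 1 lower. Of all genes, 18.2%, 7.75%, 22.1% and 2.82% to 19.8% were called there. For Smarca1 KO over WT, DESeq2 called 2 higher and 1 lower, no filter 1 higher and 1 lower, a fit of those groups alone 2 higher and 1 lower, and leaving out a library 1 to 2 higher and 0 to 1 lower. Of all genes, 4.61%, 0.396%, 0.402% and 0.0872% to 0.452% were called there. With copies summed (alternatives chosen after seeing the data), DESeq2 called 2 higher and 1 lower for DKO over WT and 1 higher for Smarca1 KO over WT, and leaving out a library gave 0 to 2 higher and 0 to 2 lower for DKO over WT, where 2.76% to 19.9% of all features were called, and 0 in the other comparisons. The share of the genes themselves was 8.81% of TPM in DKO, 8.98% in Smarca1 KO and 8.65% in WT, against 2.46%, 2.48% and 2.39% of counts. The order of levels in TPM was the same in counts per kilobase of effective length. That was nearly fixed beforehand and is no separate check, because a gene's effective length was weighted by the TPM of its transcripts. With the replicate block, 0 genes were called higher and 1 lower for DKO over Smarca1 KO, 0 for DKO over WT and 1 higher for Smarca1 KO over WT, as without it. Same-numbered libraries deviated together with r from -0.11 to 0.44 over genes. Of 18 libraries set against another group, 4 were closest to their own number, so the numbers were not taken as pairs. The r of 0.44 was that of DKO replicate 1 with Smarca1 KO replicate 1, and what these libraries share was not tested. Between the same groups, r was -0.035 for replicate 2 and 0.19 for replicate 3. Of 578 values of single named genes under alternatives, 551 kept their side of the threshold and 27 were called only in the alternative. This tally does not include the calls of Rps18 that ended when its copies were summed with it.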
